A study of Mus musculus with 4 samples.

Results

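Interferon-stimulated genes were examined in mouse embryonic fibroblasts (MEFs) that had been cultured with or without pigment epithelium-derived factor (PEDF). The 49 genes were chosen by symbol as known targets of interferon signaling, and all 49 were found among the 55487 genes counted. They fall into 4 transcription factors, 8 sensors of foreign nucleic acid, 19 antiviral effectors, 8 genes of ISG15, ubiquitin and ADP-ribose conjugation, and 10 GTPases. The cells were wild-type MEFs of C57BL/6J embryos in medium with fetal bovine serum, primary cells that stop dividing after a limited number of passages. PEDF, a secreted protein of the serpin family, was purified from mammalian cells and given at 100 ng/mL for 24 h, and control MEFs were not given it. There were 2 control libraries and 2 PEDF libraries of polyadenylated RNA, 1 of each in experiment 1 and experiment 2, and each experiment had its own embryos. The labels put the cells at passage 2, and the paper at passage 3. The comparison asked which genes PEDF-treated MEFs expressed differently.

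Interferons are secreted proteins that cells release when they sense viral or other foreign nucleic acid. Type I and type II interferons bind their receptors and activate Janus kinases, which phosphorylate STAT proteins. A complex of STAT proteins with Irf9 binds the interferon-stimulated response element (ISRE) in target promoters, and STAT dimers bind the gamma-activated site (GAS). The induced genes block viral translation, assembly and release, and they also encode the sensors and factors of the pathway itself, so that uninfected fibroblasts keep a low basal level of many of them.

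The libraries held 14722848 to 18144640 counts, and TMM scaling factors lay between 0.983 and 1.01. Paired values stand in the order of experiment 1 and experiment 2. Levels are given as counts, as CPM (counts in 1000000 of the scaled library) or, to compare genes with each other, as the deposited TPM, which is scaled for gene length. A gene with 0 counts in a library could have up to 3 by counting error, or 0.168 to 0.203 CPM, and this limit covers counting error only. All 12 fibroblast markers had counts, and they summed to 13686 to 17971 TPM, with PEDF at 0.904 and 0.862 of control in experiments 1 and 2. Macrophage markers summed to 216 to 367 TPM, endothelial markers to 19.2 and 19.1 TPM in control MEFs with Tie1 at 0 (1.03-fold and 1.05-fold with PEDF), epithelial markers to 107 to 126 TPM and skeletal muscle markers to 521 to 758 TPM. In RNA of whole cultures, fewer cells of a type and less RNA per cell cannot be told apart.

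RefSeq promoter windows of GRCm38.p6, from 250 bases before to 50 bases after the start of a transcript, were found for 36 members in 43 windows. The ISRE core was searched as GAAANNGAAA on both strands and occurred in 21 of the 43 windows (48.8%), compared with 3.44% of all 32851 windows of this length. The GAS was searched as TTCNNNGAA, which reads the same on both strands, and occurred in 12 windows (27.9%), compared with 8.3% of all. The stretches below are shown because they carry the motif shared by members of several subgroups whose values follow. Each is given 5′ to 3′ on the strand of its gene, with every base of a match in capitals, and overlapping matches are merged.

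Isg15, chr4:156200863-156200908, minus strand: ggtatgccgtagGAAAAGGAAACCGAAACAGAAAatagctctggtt
Ifit1, chr19:34640773-34640825, plus strand: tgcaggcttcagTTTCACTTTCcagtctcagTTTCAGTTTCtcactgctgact
Ifit3, chr19:34583361-34583428, plus strand: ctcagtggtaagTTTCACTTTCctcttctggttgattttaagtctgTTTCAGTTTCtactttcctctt
Ifit3b, chr19:34607757-34607824, plus strand: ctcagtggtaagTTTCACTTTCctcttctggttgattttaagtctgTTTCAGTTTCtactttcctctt
Irgm2, chr11:58214890-58214934, plus strand: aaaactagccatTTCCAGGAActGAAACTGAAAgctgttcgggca
Igtp, chr11:58199499-58199543, plus strand: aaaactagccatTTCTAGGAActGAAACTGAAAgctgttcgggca
Tgtp1, chr11:48992302-48992346, minus strand: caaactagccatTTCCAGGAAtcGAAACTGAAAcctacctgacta
Bst2, chr8:71537575-71537620, minus strand: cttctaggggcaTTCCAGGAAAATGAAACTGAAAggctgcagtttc

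The Isg15 stretch held 3 ISRE cores that overlap. The stretches of the neighboring genes Ifit3 and Ifit3b were identical over 68 bases. In Irgm2, Igtp and Tgtp1 the GAS began 11 bases before the ISRE core, and the Irgm2 and Igtp stretches were identical at 44 of 45 bases. Among members with a window, the 20 with an ISRE core had a median log2 fold change with PEDF of 0.09, and the 16 without one had a median of -0.01, but the order was not the same in each experiment. The medians of the log2 ratio with and without the core were 0.06 and -0.03 in experiment 1 and 0.05 and 0.13 in experiment 2. The 13 members with no window had a median log2 fold change of 0.25. A match is a description of the letters and not a test of binding.

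The members were expressed at low levels. Their median level was 2.87 TPM, compared with 9.19 TPM over all genes tested, and 5 members had a mean of 20 TPM or more, 25 had 1 to 10 TPM and 11 had less than 1 TPM. The summed level of all 49 was 391 and 390 TPM in control MEFs of experiments 1 and 2 and 405 and 419 TPM in PEDF-treated MEFs. The genes with the highest level were Bst2, Lgals3bp, Ifi27, Samhd1 and Ifi35, all effectors. At least 100 counts over the 4 libraries were found for 38 members, and 46 had a count in every library. The plot of levels by library shows that the 4 libraries lay close together for most genes above 10 TPM and spread apart below 1 TPM.

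**Figure D1:**
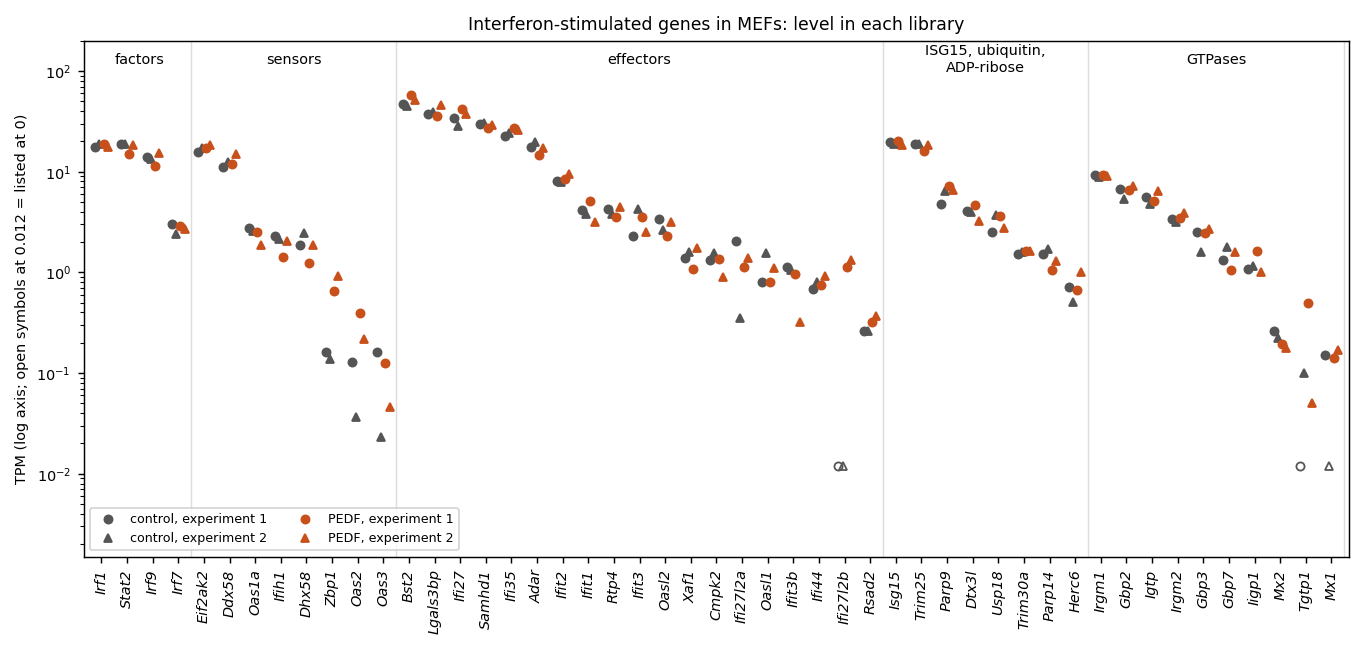
Level of each of the 49 interferon-stimulated genes in each library, in TPM on a log axis, grouped by role and ordered by mean level within a group. Gray marks control and orange PEDF, circles experiment 1 and triangles experiment 2, and open symbols are libraries listed at 0. Bst2, Lgals3bp and Ifi27 were the effectors with the highest mean level, and Zbp1, Oas2 and Oas3 were the sensors with the lowest.

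No member reached an adjusted p of 0.05 in the quasi-likelihood test of edgeR (0.00516% of the 19384 genes tested), and the smallest adjusted p of a member was 0.626. An unadjusted p under 0.05 was reached by 4 of 49 members, compared with 6.88% of all genes. Zbp1, Ifi27 and Ifi27l2b were higher (3.22% of all genes were higher at this limit) and Adar was lower (3.66%). DESeq2 gave 2 members with an unadjusted p under 0.05, Zbp1 and Ifi27l2b, compared with 1.46% of all genes, and none that passed after adjustment (0.0191%). A second edgeR fit, called the block fit, took the difference between the preparations out of the spread. There, 7 members had an unadjusted p under 0.05 (14.6% of all genes), namely the same 4 and Ddx58, Bst2 and Parp9, and Ifi27 and Ifi27l2b passed an adjusted p of 0.05, compared with 3.75% of all genes. Of these, Ifi27l2b entered the test only through its PEDF counts. The filter of 10 counts in total was met by 4 members with fewer than 10 counts in control MEFs only, Zbp1, Oas2, Ifi27l2b and Tgtp1, and by 1 with fewer than 10 in PEDF-treated MEFs only, Mx2. Such genes were kept through the counts of 1 group, so their calls do not support a difference of the members as a group. The median log2 fold change was 0.07 over the members and 0.0012 over all genes tested. For 33 of 49 members, compared with 69.9% of all genes, the 95% interval of the fold change lay within 2-fold in either direction, and for the other 16 a change of that size was not excluded. The median size of the log2 fold change was 0.198 over the members and 0.137 over all genes. The members also had fewer counts, with a median total of 241 compared with 775.5. The median half-width of their 95% interval was wider, 0.584 compared with 0.337 on the log2 scale. The part of low counts in the size of the change was not tested.

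Zbp1, a sensor of nucleic acid in the Z conformation that can start inflammatory cell death (ENSMUSG00000027514, chr2:173206612-173218923 of GRCm38, minus strand), was rare in both groups. It had 6 counts in all in control MEFs, so it met the limits on total counts only through its PEDF libraries. Control MEFs had 3 and 3 counts, and PEDF-treated MEFs had 13 and 20. Both PEDF libraries were above both control libraries, and the counts were few in all 4. The level went from 0.203 and 0.168 CPM to 0.836 and 1.12 CPM. Summed over the experiments, the ratio of PEDF to control was 5.37, with an exact 95% counting interval of 2.22 to 15.7. The fitted log2 fold change was 2.37 (SE 0.71, n = 2 libraries a group), with an unadjusted p of 0.00426 and an adjusted p of 0.696 in edgeR's quasi-likelihood test. No 100-base stretch of its longest transcript occurred in another gene.

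Ifi27l2b and Ifi27 belong to a family of small hydrophobic proteins that interferon induces, and Ifi27l2a lies between them. Ifi27 is ENSMUSG00000064215 (chr12:103434211-103440239 of GRCm38, plus strand), and Ifi27l2b is ENSMUSG00000021208 (chr12:103450898-103457223 of GRCm38, minus strand). Ifi27l2b had 0 counts in both control libraries and 7 and 9 in PEDF-treated MEFs. Against the limit of 3 counts per control library it was at least 2.57-fold higher with PEDF, or at least 2.72-fold without PEDF replicate 1 and at least 2.42-fold without PEDF replicate 2. The adjusted p was 0.626 in edgeR's quasi-likelihood test and 0.0380 in the block fit, for a gene that met the filter of 10 counts only through its PEDF libraries. Over all settings that tested it, the adjusted p of Ifi27l2b ranged from 0.0380 to 0.999. Ifi27l2b had too few counts to be tested when either PEDF library was left out.

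Ifi27 was abundant enough to be measured in every library, with 265 and 255 counts in control MEFs and 346 and 340 counts in PEDF-treated MEFs. In CPM these were 18.0 and 14.3 for control and 22.3 and 19.1 for PEDF, so that the groups did not overlap, and the experiment 2 libraries were the lower of each group. The ratio was 1.24 in experiment 1 (95% counting interval 1.05 to 1.46) and 1.33 in experiment 2 (1.13 to 1.58). The fitted log2 fold change of Ifi27 was 0.36 (SE 0.14), with an unadjusted p of 0.0194 and an adjusted p of 0.696 in edgeR's quasi-likelihood test, or 0.0485 in the block fit. Over all settings it ranged from 0.0485 to 0.999. Without control replicate 2 the unadjusted p of Ifi27 was 0.208, and without PEDF replicate 1 it was 0.168. Ifi27l2a had 5 and 1 counts in control MEFs and 3 and 4 in PEDF-treated MEFs, and its ratio over both experiments of 1.14 had a counting interval of 0.328 to 4.11, so that a difference was not detectable at this depth. Summed macrophage markers were 1.05-fold and 1.40-fold higher with PEDF in experiments 1 and 2, with 7 of 13 higher in both, and summed skeletal muscle markers were 1.13-fold and 1.14-fold higher, with 5 of 6 higher in both. Summed fibroblast markers were at 0.904 and 0.862 of control, but single markers went both ways, with 4 of 12 higher in both experiments, 5 lower in both and a median log2 fold change of 0.0052. In the block fit, 5 of 12 fibroblast, 2 of 6 skeletal muscle and 1 of 13 macrophage markers passed an adjusted p of 0.05, in either direction, beside 3.75% of all genes. Their part in the values of Ifi27, Ifi27l2b and Zbp1 was not tested.

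Adar (ENSMUSG00000027951, chr3:89715022-89753446 of GRCm38, plus strand), which edits adenosine to inosine in double-stranded RNA and so keeps the cell's own RNA from being sensed, was the member that was lower with PEDF at an unadjusted p under 0.05. It had 50.9 and 55.2 CPM in control MEFs and 43.4 and 48.9 CPM in PEDF-treated MEFs. The PEDF library was below the control library of its own experiment in both cases, and all PEDF values were below all control values. The log2 fold change of Adar was -0.20 (SE 0.09), with an unadjusted p of 0.0382 and an adjusted p of 0.712 in edgeR's quasi-likelihood test. Without PEDF replicate 1 the unadjusted p of Adar was 0.298, and without control replicate 2 it was 0.222. Of the 100-base stretches of its longest transcript, 16.9% overlap Chrnb2 on the opposite strand, and the strand setting of the counting is not given in the sources used here.

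**Figure D2:**
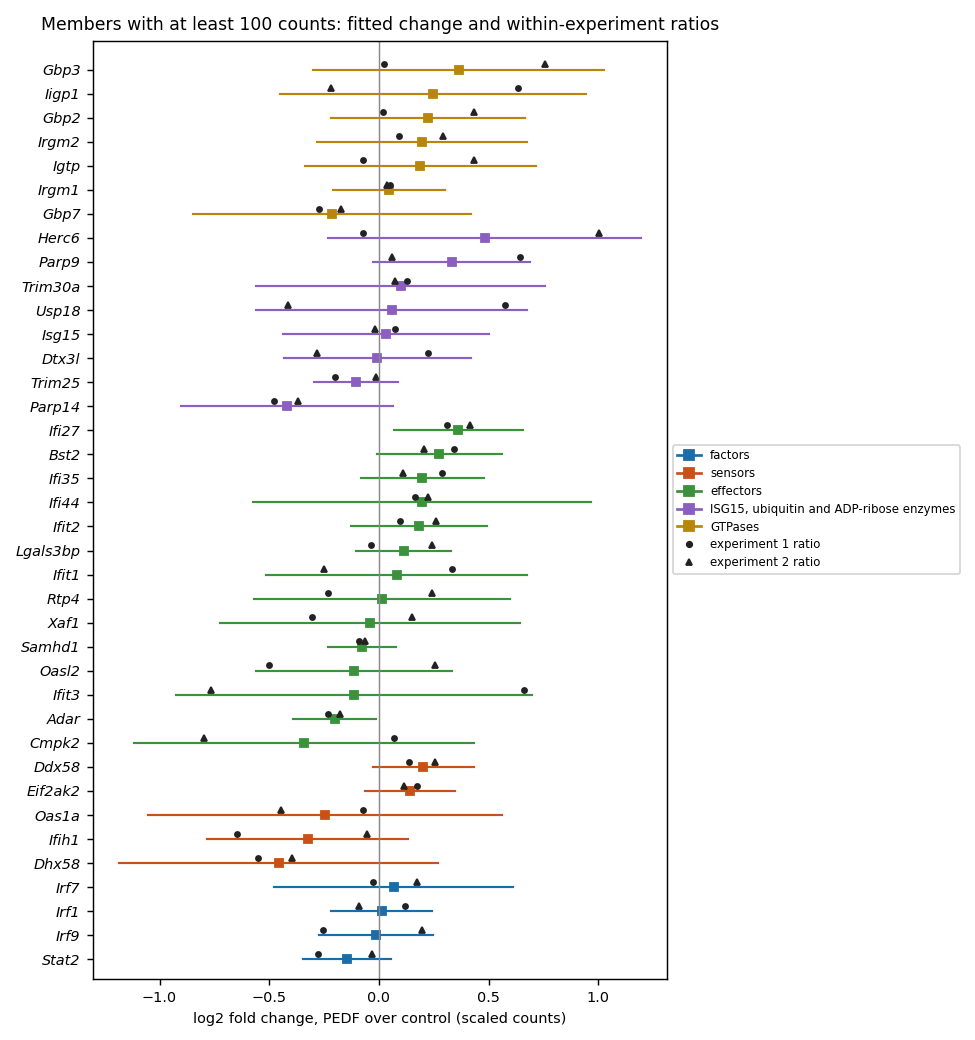
Log2 fold change of PEDF over control for the 38 members with at least 100 counts, grouped by role. Squares and lines are the fitted value and its 95% interval from edgeR, and black circles and triangles are the ratios inside experiments 1 and 2. The interval of Ifi27 lies above 0 and that of Adar below 0, and the others cross 0.

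The transcription factors did not pass the test. Irf1, an early target of type II interferon, had 25.1 and 25.8 CPM in control MEFs and 27.2 and 24.2 CPM in PEDF-treated MEFs, with a log2 fold change of 0.01 (SE 0.11). Stat2, a part of the ISRE-binding complex, had 39.7 and 38.6 CPM in control MEFs and 32.7 and 37.8 CPM in PEDF-treated MEFs, with a log2 fold change of -0.15 (SE 0.09). Its PEDF values lay below its control values, and the difference was mainly in experiment 1. Irf9, the DNA-binding partner of that complex, had a ratio of 0.839 in experiment 1 (0.724 to 0.971) and 1.15 in experiment 2 (1.01 to 1.30), opposite directions beyond counting error. Irf7, which drives interferon transcription, had a log2 fold change of 0.07 (SE 0.26). The median log2 fold change of the 4 factors was 0.00020.

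The sensors had the widest 95% intervals of the subgroups, with a median half-width of 0.77 on the log2 scale. Eif2ak2, the kinase that stops translation on double-stranded RNA, had 28.2 and 30.5 CPM in control MEFs and 31.8 and 33.0 CPM in PEDF-treated MEFs, with a log2 fold change of 0.14 (SE 0.10). Ddx58, the RIG-I helicase, had 27.6 and 30.7 CPM in control MEFs and 30.4 and 36.7 CPM in PEDF-treated MEFs, with a log2 fold change of 0.20 (SE 0.11). Both were higher with PEDF within each experiment, and neither had an adjusted p under 0.05 in either fit. Ifih1, the related helicase for long double-stranded RNA, had 6.64 and 5.999 CPM in control MEFs and 4.25 and 5.78 CPM in PEDF-treated MEFs, so that it differed mainly in experiment 1, with a ratio of 0.639 (0.461 to 0.883). Dhx58, another helicase of the family, had 32 and 50 counts in control MEFs and 23 and 38 in PEDF-treated MEFs, and its log2 fold change was -0.46 (SE 0.34). None of these 3 helicases had an unadjusted p under 0.05 in the first edgeR fit. With no filter on low counts, Ddx58 had 0.0479 in edgeR's quasi-likelihood test without the block. In the block fit Ddx58 had 0.0237, and leaving out 1 library moved its p without the block from 0.0201 without PEDF replicate 1 to 0.664 without PEDF replicate 2. The counting intervals included 1 for Ddx58 in experiment 1, for Ifih1 in experiment 2 and for Dhx58 in both.

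The oligoadenylate synthetases make the messenger that activates RNase L. Oas2 had 3 and 1 counts in control MEFs and 10 and 6 in PEDF-treated MEFs, with a ratio over both experiments of 3.91 (95% counting interval 1.26 to 16.1) and an unadjusted p of 0.0703. Oas1a had 27, 30, 27 and 22 counts in control 1, control 2, PEDF 1 and PEDF 2, and shares 40.9% of its 100-base stretches with Oas1g, so its count is uncertain. Oas3 had 6, 1, 5 and 2 counts in the same order, and no direction could be read from it.

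**Figure D3:**
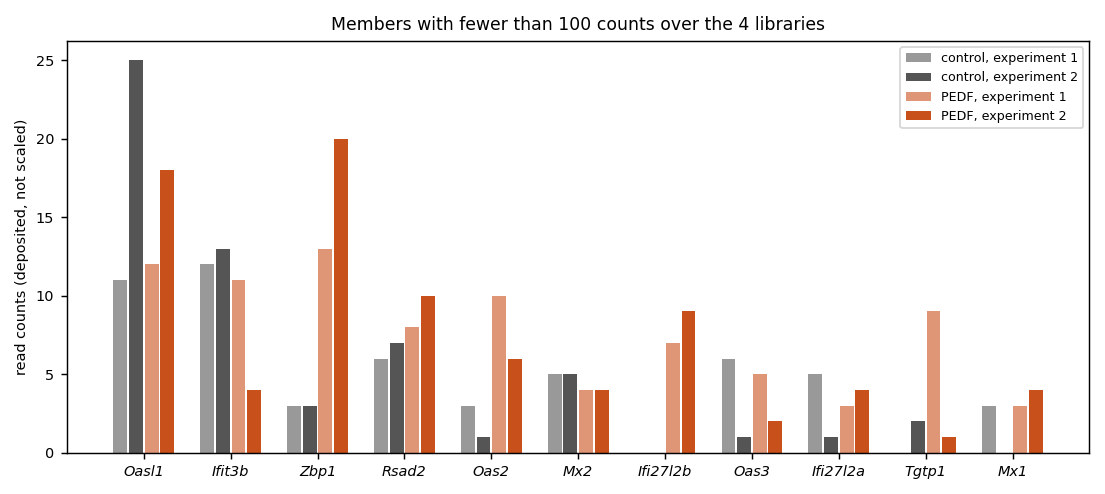
Deposited read counts of the 11 members with fewer than 100 counts in total, as bars for each library, with lighter bars for experiment 1. Zbp1, Rsad2, Oas2 and Ifi27l2b had more counts in both PEDF libraries than in either control library, while Tgtp1 had 9 of its counts in 1 PEDF library.

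Among the other effectors, Bst2, the tetherin that holds budding viruses at the cell surface, had the highest TPM of all members. It had 15.2 and 14.2 CPM in control MEFs and 19.2 and 16.3 CPM in PEDF-treated MEFs, and the groups did not overlap. Its log2 fold change was 0.28 (SE 0.13), with an unadjusted p of 0.0569 in edgeR's quasi-likelihood test. In the block fit the log2 fold change of Bst2 was 0.27 with an unadjusted p of 0.0267. With the length trend removed there, these were 0.21 and 0.0832. Leaving out 1 library gave Bst2 an unadjusted p of 0.0286 without PEDF replicate 2, 0.0622 without control replicate 1, 0.191 without control replicate 2 and 0.385 without PEDF replicate 1. Lgals3bp, a secreted glycoprotein that binds galectins, had 37.8 and 38.7 CPM in control MEFs and 36.9 and 45.7 CPM in PEDF-treated MEFs, higher in experiment 2 and not in experiment 1, with a log2 fold change of 0.11 (SE 0.10). Samhd1, which breaks down deoxynucleotides, and Ifi35 had log2 fold changes of -0.08 (SE 0.07) and 0.20 (SE 0.13).

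The Ifit genes encode proteins that bind foreign RNA and block its translation, and none of them passed the test. Ifit2 had 166 and 193 counts in control MEFs and 187 and 231 in PEDF-treated MEFs. Ifit1 had 58 and 62 counts in control MEFs and 77 and 52 in PEDF-treated MEFs. Ifit3 had 21 and 46 counts in control MEFs and 35 and 27 in PEDF-treated MEFs, with log2 ratios of 0.66 in experiment 1 and -0.77 in experiment 2. The counting intervals included 1 in both experiments for Ifit1 and Ifit2, and in experiment 1 for Ifit3. Ifit3b had 12 and 13 counts in control MEFs and 11 and 4 in PEDF-treated MEFs, and the ratio of 0.308 in experiment 2 (0.0732 to 0.997) was the lowest of any member with at least 30 counts. Ifit3 and Ifit3b share 31.7% and 27.4% of their 100-base stretches with each other. Read pairs that lie wholly in these stretches do not map uniquely and would be left out of both counts, so both counts are uncertain.

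The other effectors were Oasl1, Oasl2, Rsad2, Cmpk2, Rtp4, Xaf1 and Ifi44. Their log2 fold changes ranged from -0.34 for Cmpk2, a nucleotide kinase next to Rsad2, to 0.43 for Rsad2 itself, the antiviral enzyme viperin, which had 6 and 7 counts in control MEFs and 8 and 10 in PEDF-treated MEFs. None had an unadjusted p under 0.05. The median log2 fold change of the 19 effectors was 0.08.

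ISG15 is a ubiquitin-like protein that is joined to target proteins after interferon signaling. Isg15 had 73 and 81 counts in control MEFs and 81 and 80 in PEDF-treated MEFs, or 4.95, 4.54, 5.21 and 4.49 CPM, and all libraries overlapped. Its log2 fold change was 0.03 (SE 0.22), with a 95% interval of -0.44 to 0.50. Trim25, a ubiquitin ligase that acts on RIG-I, had 38.9 and 37.4 CPM in control MEFs and 33.9 and 37.0 CPM in PEDF-treated MEFs, with a log2 fold change of -0.10 (SE 0.09). Usp18, the protease that removes ISG15, had a log2 ratio of 0.57 in experiment 1 and -0.41 in experiment 2. Herc6, the mouse ligase for ISG15, was 0.949-fold in experiment 1 (0.577 to 1.56) and 2.00-fold in experiment 2 (1.26 to 3.24), and 20.9% of its 100-base stretches also occur in Gm45193. The counting intervals of Isg15 and Usp18 included 1 in both experiments, and that of Herc6 in experiment 1.

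Neither of the ADP-ribosyltransferases Parp9 and Parp14 had an unadjusted p under 0.05 in the first edgeR fit. With no filter on low counts, Parp9 had 0.0454 in edgeR's quasi-likelihood test without the block. Parp9 had 121 and 192 counts in control MEFs and 199 and 200 in PEDF-treated MEFs, with a log2 fold change of 0.33 (SE 0.17) and an unadjusted p of 0.0667, or 0.0237 in the block fit, and the difference was mainly in experiment 1. Leaving out 1 library moved the unadjusted p of Parp9 from 0.0145 without control replicate 2 to 0.429 without control replicate 1. Parp14 had 74 and 97 counts in control MEFs and 56 and 75 in PEDF-treated MEFs, with a log2 fold change of -0.42 (SE 0.23) and an unadjusted p of 0.0851. Dtx3l, the ubiquitin ligase that pairs with Parp9 and overlaps it on the opposite strand, had a log2 fold change of -0.01 (SE 0.20). Trim30a, a ligase that restrains innate signaling, had 0.10 (SE 0.31).

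The GTPases, most of which attack the vacuoles of intracellular pathogens, had a median fitted log2 fold change of 0.21 over 10 genes, with median log2 ratios of 0.02 in experiment 1 and 0.16 in experiment 2. Of the 10, 0 reached an unadjusted p of 0.05 in edgeR (6.88% of all genes), in the block fit (14.6%) or in DESeq2 (1.46%). Irgm1, a regulator of the immunity-related GTPases, had 19.1 and 18.0 CPM in control MEFs and 19.8 and 18.5 CPM in PEDF-treated MEFs, with a log2 fold change of 0.05 (SE 0.12). Irgm2 had 4.40 and 4.04 CPM in control MEFs and 4.70 and 4.94 CPM in PEDF-treated MEFs, with a log2 fold change of 0.19 (SE 0.23). Gbp2, a guanylate-binding protein, had 6.03 and 4.65 CPM in control MEFs and 6.11 and 6.29 CPM in PEDF-treated MEFs, with a log2 fold change of 0.22 (SE 0.21). For Irgm2 and Gbp2 both PEDF libraries were the higher ones, while for Irgm1 the groups overlapped.

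Gbp3 had a log2 fold change of 0.36 (SE 0.31), Igtp 0.19 (SE 0.25), Iigp1 0.25 (SE 0.33) and Gbp7 -0.21 (SE 0.30). Mx1 and Mx2, whose intact forms are antiviral, are annotated as polymorphic pseudogenes, which some strains carry in a defective form. Mx1 had 3 and 0 counts in control MEFs and 3 and 4 in PEDF-treated MEFs, and Mx2 had 5 and 5 counts and 4 and 4. Tgtp1 had 0 and 2 counts in control MEFs and 9 and 1 in PEDF-treated MEFs, and 80.0% of its 100-base stretches also occur in Tgtp2. Among the genes whose promoters share the GAS and ISRE core at one spacing, Igtp had 59 and 60 counts in control MEFs and 59 and 81 in PEDF-treated MEFs. The log2 ratios of Igtp and Irgm2 were -0.07 and 0.09 in experiment 1 and 0.43 and 0.29 in experiment 2, and Tgtp1 was too sparse to read.

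Directions were compared within each experiment, where the control and PEDF cells came from the same preparation. Of 49 members, 17 were higher with PEDF in both experiments (30.1% of all genes), 11 were lower in both (28.8%), and 21 moved in opposite directions or not at all in one of them. All PEDF values lay above all control values for 14 members (18.9% of all genes) and below them for 9 (18.4%). In experiment 1 the counting interval of the ratio lay above 1 for 7 members (9.95%) and below 1 for 6 (10.2%), and in experiment 2 for 9 (12.8%) and 4 (12.7%). It lay on the same side of 1 in both experiments above 1 for Zbp1, Ifi27 and Ifi27l2b (3.44% of all genes) and below 1 for Adar (3.88%). Zbp1, Oas2 and Ifi27l2b, among the 17 and the 14, met the filter of 10 counts only through their PEDF libraries. Mx2, among the 11 and the 9, met it only through its control libraries. Zbp1, Ifi27l2b and, in experiment 1, Tgtp1 also stand among those with an interval above 1. Counts that include these genes are no test of a direction of the members. The median log2 ratio of the members was 0.05 in experiment 1 and 0.11 in experiment 2.

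**Figure D4:**
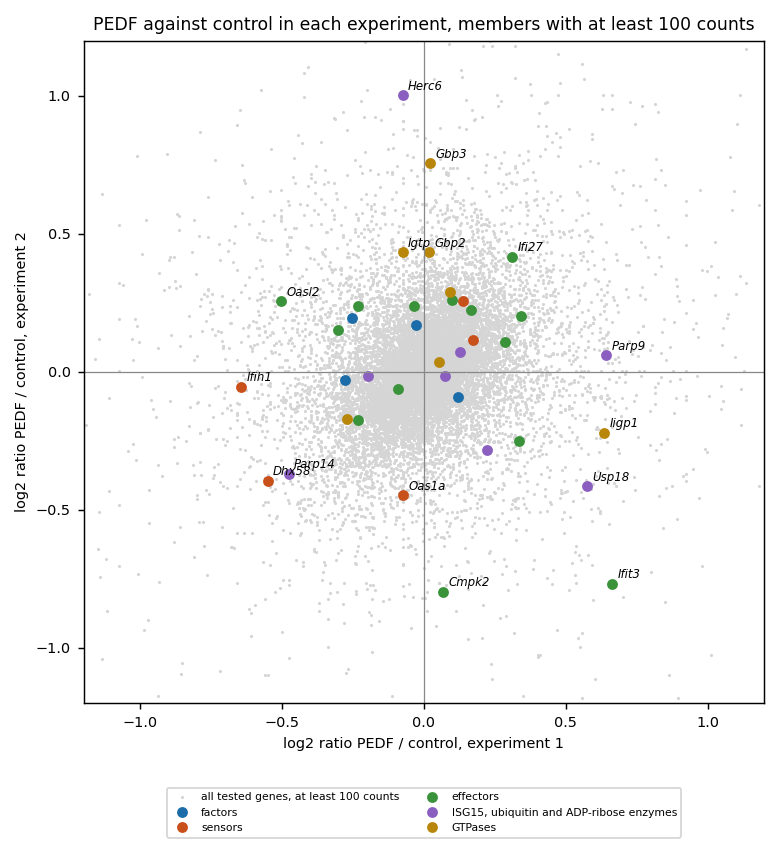
Log2 ratio of PEDF to control in experiment 1 (x axis) and experiment 2 (y axis) for the 38 members with at least 100 counts, colored by role, over all tested genes with at least 100 counts in gray. Ifi27 lies in the upper right, Ifit3 and Usp18 in the lower right and Oasl2 in the upper left; members fill all 4 quadrants.

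The median size of the log2 difference of a member was 0.170 between experiments and 0.198 between PEDF and control, beside 0.135 and 0.137 over all genes tested. The lower counts of the members, given above, apply to both differences. Of 49 members, 19 differed more between experiments, compared with 50% of all genes. No member passed an adjusted p of 0.05 between experiments in the quasi-likelihood test of edgeR (0.0567% of all genes), and 0 had an unadjusted p under 0.05 (7.67%), which was also 0 in DESeq2. Leaving out 1 library gave 0 to 5 members, with 5 without control replicate 1, 3 without control replicate 2 and 2 without PEDF replicate 2. With the treatment as a term, 6 members had an unadjusted p under 0.05 (14.8%), namely Ddx58, Ifit1, Adar, Ifi27, Lgals3bp and Dtx3l, and none passed after adjustment (4.49%).

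The change with PEDF followed exon length over all genes, and the members were read beside that trend. In the block fit, the median log2 fold change was 0.22 for the 8 members with exons under 2000 bp (0.06 for all genes of this length), 0.11 for the 24 members of 2000 to 5000 bp (0.03) and -0.03 for the 17 longer members (-0.05). Ifi27 has 1467 bp of exons, Bst2 903 bp, Zbp1 3529 bp and Adar 8118 bp. When the length trend was removed in the block fit, the log2 fold change of Ifi27 went from 0.36 to 0.30 with an adjusted p of 0.187, by edgeR's quasi-likelihood test. The adjusted p of Ifi27l2b was then 0.0716, and its fitted value hardly moved, from 6.01 to 5.98. No member then passed after adjustment (2.05% of all genes), and 6 had an unadjusted p under 0.05 (11.8%).

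**Figure D5:**
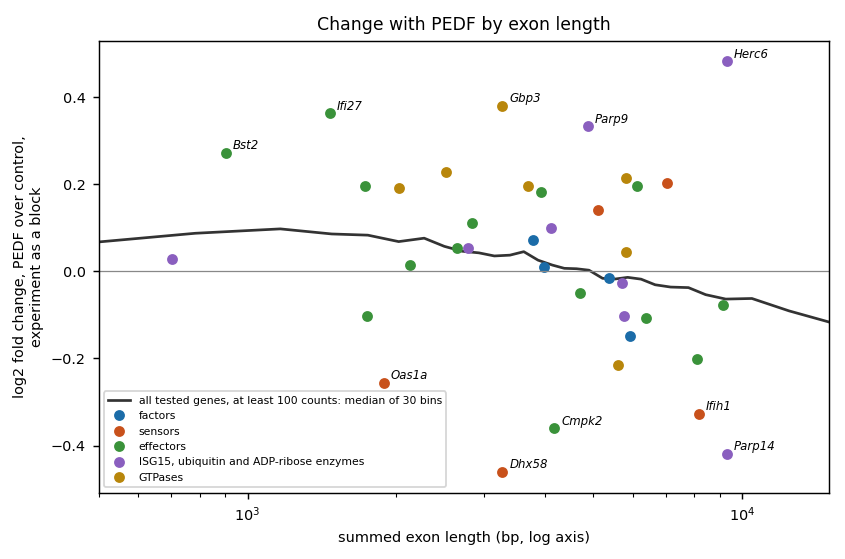
Log2 fold change of PEDF over control, in the block fit, against summed exon length in bp on a log axis, for the 38 members with at least 100 counts. The black line is the median of all tested genes with at least 100 counts in 30 bins of length; it falls from above 0 for short genes to below 0 for long ones, and members lie on both sides of it at all lengths shown.

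All other genes on the pathway list had counts apart from the interferons, but the type III receptor gene Ifnlr1 was rare. Ifnlr1 had 1 and 10 counts in control MEFs and 11 and 13 in PEDF-treated MEFs, with an unadjusted p of 0.172 in edgeR's quasi-likelihood test. The 9 interferon genes on the pathway list, of types I, II and III, had 0 counts in every library, which allows up to 3 counts in each. The type I receptor genes Ifnar1 and Ifnar2 were at 44.1 to 48.1 TPM and 22.7 to 26.8 TPM over the 4 libraries, and the type II receptor genes Ifngr1 and Ifngr2 at 35.9 to 39.2 TPM and 42.6 to 51.4 TPM. Log2 fold changes of these receptor genes were -0.02, 0.10, 0.04 and 0.17, and none passed the test. Of the 28 pathway genes tested, 1 had an unadjusted p under 0.05 (6.88% of all genes), and it was lower (3.66%). That gene was Ikbke, a kinase upstream of interferon production, with 11.8 and 13.1 CPM in control MEFs and 10.4 and 9.43 CPM in PEDF-treated MEFs. Its log2 fold change was -0.34 (SE 0.15) and an unadjusted p of 0.0425.

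Of 45 other interferon-stimulated genes that were tested, 1 was higher (3.22% of all genes) and 2 were lower (3.66%) at an unadjusted p under 0.05. In the block fit 3 passed after adjustment (3.75% of all genes), Ifitm3, Helz2 and Rnf213. The median log2 fold change of the 45 was 0.03. Ifitm3, a membrane protein that blocks viral entry and was far more abundant than any member, had 221 and 200.2 CPM in control MEFs and 243 and 241 CPM in PEDF-treated MEFs, with a log2 fold change of 0.20 (SE 0.07) and an adjusted p of 0.696 in edgeR's quasi-likelihood test, or 0.00177 in the block fit. Its adjusted p was 0.0668 with the length trend also removed, where its log2 fold change was 0.15, and 0.0931 with the block in DESeq2. Helz2, a helicase coactivator, was lower, with a log2 fold change of -0.33 (SE 0.12) and an adjusted p of 0.0312 in the block fit. Oas1b had 14 and 19 counts in control MEFs and 6 and 6 in PEDF-treated MEFs. Rnf213, a giant ubiquitin ligase, had a log2 fold change of -0.31 (SE 0.16), with an unadjusted p of 0.0971, and an adjusted p of 0.000663 in the block fit. With the length trend removed, the adjusted p was 0.1996 for Helz2 and 0.117 for Rnf213, and over all settings the adjusted p of Ifitm3, Helz2 and Rnf213 reached 0.999. Both PEDF values of Ifitm3 lay above both of its control values, and both PEDF values of Oas1b and Helz2 lay below theirs.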

How the data were processed

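The authors checked the paired reads with FastQC 0.11.7, trimmed them with Trimmomatic 0.38, aligned them with HISAT2 2.1.0, handled the alignments with SAMtools 1.9 and assigned the reads that mapped uniquely to genes with featureCounts 1.6.3. The deposited counts were not normalized, and the labels give mm10. Neither the annotation nor the strand setting is given in the sources used here. The authors also deposited TPM values, whose conversion is not described.

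The deposited counts were analyzed with edgeR 4.0.16 under R 4.3.3 (TMM, robust quasi-likelihood test, Benjamini-Hochberg adjustment), keeping 19384 genes whose counts summed to 10 or more. The 4 libraries entered without a covariate. Alternatives were DESeq2 1.42.0 with default filtering, which gave no adjusted p to 38 members, other filters and scalings, limma 3.58.1 on log2(TPM + 1) and log2(TPM + 0.1), the experiment as a block, the block with a spline of 5 degrees of freedom in exon length, and each library left out. Intervals of ratios are exact 95% counting intervals. Exon lengths follow GENCODE release 21 of the mouse (M21), whose coordinates matched for 48 members. The methods were tested on simulated data.

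The pairing comes from the design, since libraries of an experiment share embryos. Over 10857 genes, the difference between experiments in control correlated with that in PEDF (r = 0.415, where the points are genes and not replicates). Each experiment is a separate preparation of MEFs.

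The members and lists were chosen with earlier results of these data known. Values in every library were given for members with an unadjusted p under 0.05, or an adjusted p under 0.05 with the block, the 2 of highest TPM in each subgroup, the extremes of the ratio inside each experiment among members with at least 30 counts, and the similar pairs Ifit3 and Ifit3b, Ifi27l2a and Ifi27l2b, and Irgm1 and Irgm2. In the pathway and other lists, genes past the limits on p and the type I and type II receptor genes were named. Values in every library for Oas1a, Oas2, Oas3, Dhx58, Ifit1, Ifit2, Parp9, Parp14, Tgtp1 and others outside this rule were chosen after they were seen. Promoters were not analysed here for 13 members.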

Additional observations from a re-analysis of the deposited data

How the results depend on the processing

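The number of members with an unadjusted p under 0.05 for PEDF against control was 4, and it was 2 in DESeq2, 7 without a filter on low counts, 7 with the replicate block in edgeR and 1 with the replicate block in DESeq2. Leaving out 1 library at a time gave 3 to 7, with 7 without PEDF replicate 2, and the cause was not tested. The number with an adjusted p under 0.05 was 0, and it was 2 with the replicate block in edgeR (Ifi27 with a log2 fold change of 0.36 and Ifi27l2b with a fitted value of 6.01, which is no bound), and 0 in every fit that left out 1 library. The block changed no other call among the members after adjustment. The members' median log2 fold change of 0.07 ranged from 0.039 to 0.106 when 1 library was left out, and it was 0.106 without PEDF replicate 2. The other settings gave 0.034 (limma on log2(TPM + 1)) to 0.073, with 0.043 under filterByExpr. It was the same with Ifi27l2b at its bound. No alternative gave a member an adjusted p under 0.05 between experiments. Of the 19 named members, 13 kept their sign under every alternative that tested them (13 alternatives, or 10 for Ifi27l2b, which was too rare for the others), and Ifi27l2a, Ifit3, Irf1, Irgm1, Isg15 and Lgals3bp did not. With 2 libraries a group, and fewer than 100 counts for 11 members, small changes in rare members were not detectable.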
